A study of Homo sapiens with 8 samples.

Results

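The genes described here are the 289 genes of human chromosome 20 that carried both an input and a ribosome-protected fragment (RPF) value, out of 11244 such genes. They were found by position: a gene was taken when its first exon in the count annotation lay on chromosome 20. Of the 309 genes that met this, 20 whose symbols begin with ZNF, MRP, PSM, RPS, NDUF, ATP5, EIF, EEF, NOP or TOMM were set aside by name. The chromosome was picked because the input RNA of its genes was already known to be lower in these METTL5 knockout cells. The input changes below are therefore given as a description and support nothing. The RPF libraries took no part in that choice, but they were made from the same lysates.

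The study sequenced input RNA and RPFs from HepG2, a human liver cancer line, with METTL5 intact (WT) or disrupted by CRISPR-Cas9 with a pair of guides (KO). METTL5 is the methyltransferase that places one N6-methyladenosine on 18S ribosomal RNA. Each genotype had 2 input and 2 RPF libraries, the input and RPF library of one number coming from one lysate, and all cells were exposed to cycloheximide at 100 µg/ml for 7 min before harvest. The lines were grown from isolated clones, and the clone behind each library is not given in the sources used here, so genotype and clone cannot be told apart. Replicates are taken as separate lysates, and whether they came from separate cultures is not stated; the p-values measure only the spread between these samples.

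METTL5 (chr2:169810081-169824931, minus strand) had 490 and 542 input reads in WT1 and WT2 against 208 and 151 in KO1 and KO2. Its RPF reads were 158 and 226 in WT against 41 and 21 in KO, a log2 change of -3.56 ± 0.30. For every change below, ± is an SE. In RPF and TE it is the SE of the fit, and in input it was worked out from the change and its test statistic. The label of the cells was checked in the same way. The 6 hepatocyte markers ALB, AFP, APOA1, APOB, SERPINA1 and TTR together had 2 to 12 counts in each input library, with SERPINA1 and TTR at 0 in every one. COL1A1 and COL3A1, collagens typical of fibroblasts, together had 3202 to 4128 counts. Markers of blood, endothelium and squamous epithelium summed to 0 to 10 counts a library. The libraries are therefore called WT and KO below, and HepG2 stays a label whose defining markers were absent or nearly so in both genotypes. Input libraries held 10710226 to 15307257 counts. RPF libraries held 3970779 to 9255921 reads, with both KO libraries about as deep as each other and deeper than both WT libraries.

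Genes of one chromosome share no common function. They do share a DNA molecule, and neighbours share its copy number, replication timing and chromatin domains. Clones isolated from a cancer cell line can differ from each other in whole chromosomes or in stretches of them. DNA was not measured in this series, and whether the number of chromosome 20 copies differed between the clones was not tested. Ribosome profiling adds a second reading of each gene: the input counts its mRNA, the RPF counts the fragments of it covered by ribosomes, and translation efficiency (TE) is the RPF value over the input value.

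Both readings of the chromosome 20 genes were lower in KO by a like amount. The median log2 change was -0.47 in input (27.8% below WT) and -0.49 in RPF (28.9% below WT), against 0.00 and 0.02 over all genes. Here and below, changes of groups of genes are medians of log2(value + 1) differences, where a value is a read count divided by its library's size factor. The lysates are bulk samples, so fewer cells with a transcript and less of it per cell cannot be told apart. The lower and upper quartiles of the members were -0.69 and -0.16 in input and -0.84 and -0.13 in RPF. Below 0 were 248 members (85.8%) in input and 240 (83.0%) in RPF, against 49.9% and 48.0% of all genes. For 218 members both readings were below 0.

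The shift was of a like size in each KO library. Against the mean of both WT libraries, the members' median was -0.46 in KO1 input, -0.45 in KO2 input, -0.48 in KO1 RPF and -0.48 in KO2 RPF. In the 4 WT libraries it stayed between -0.01 and 0.01. All 4 single pairs of a KO with a WT library gave a median of -0.45 to -0.44 in input and of -0.50 to -0.46 in RPF. Between libraries of one genotype it was -0.04 to 0.02.

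In input, 155 of 285 members tested were called lower and 8 higher, where 10.6% of all 14054 genes tested were called lower and 11.8% higher; since the chromosome was chosen on this contrast, nothing is read from these counts. Without WT1 the lower calls in input numbered 79, and without WT2 83. The 4 members left out of that fit had too few counts. In RPF, limma called 135 of 289 members lower (46.7%) at an adjusted p under 0.05, against 13.1% of all 11240 genes, and 7 higher (2.42%), against 16.2%. The adjustment ran over all genes. A count model (edgeR) on the recovered reads called 141 lower and 6 higher of 288, against backgrounds of 13.7% and 14.4%, and 134 of the lower calls were made by both. Both KO values lay below both WT values for 214 members in input (31.4% of all genes did so) and for 197 members in RPF (29.0% of all genes). Lower calls were made in both readings for 103 members, in input alone for 52 and in RPF alone for 32. No member was called in opposite directions. Input and RPF changes also moved together over all genes (Pearson correlation 0.64, and 0.70 over the members). Nothing particular to the members is therefore read from this overlap. The 2 readings are set against each other gene by gene as TE below.

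**Figure D1:**
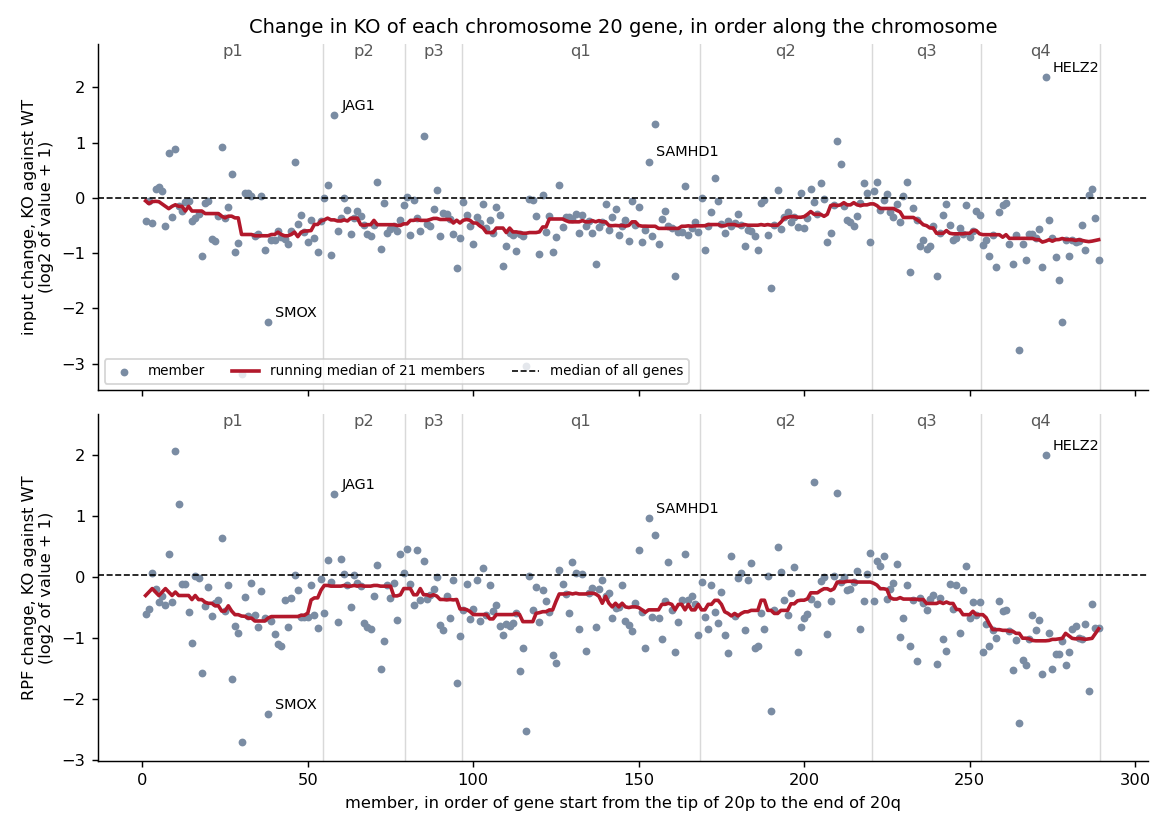
Log2 change in KO against WT of each of the 289 members in input (top) and RPF (bottom), in order of gene start; p1 to q4 are position bins, the red line is a running median of 21 members (fewer at the ends) and the dashed line the median of all genes. The red line stays below the dashed line along the chromosome, comes close to it at the tip of p1 in input and in late q2 in both panels, and is lowest in q4.

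Position along the chromosome was described in 7 bins by gene start. On 20p these were p1 (0 to 10 Mb, 54 members), p2 (10 to 20 Mb, 25) and p3 (20 to 28 Mb, 17). On 20q they were q1 (28 to 40 Mb, 72), q2 (40 to 50 Mb, 52), q3 (50 to 60 Mb, 33) and q4 (60 Mb to the end, 36). The 96 members of 20p had a median of -0.40 in input and -0.38 in RPF, and the 193 of 20q had -0.50 and -0.55. Neither arm was at the level of all genes.

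In input, 6 of the 7 bins had medians within a narrow band. They were -0.40 in p1, -0.41 in p2, -0.39 in p3, -0.51 in q1, -0.38 in q2 and -0.39 in q3. The distal bin q4 stood apart at -0.76, 41.0% below WT. RPF varied more between bins. Its median was -0.47 in p1, -0.14 in p2, -0.32 in p3, -0.54 in q1, -0.32 in q2, -0.38 in q3 and -1.01 in q4, the last 50.4% below WT. In RPF, 13.1% of all genes were called lower. On 20p this share was 40.7% in p1 (22 of 54), 20.0% in p2 (5 of 25) and 35.3% in p3 (6 of 17). It was 56.9% in q1 (41 of 72) and 30.8% in q2 (16 of 52). Further along 20q it was 45.5% in q3 (15 of 33) and 83.3% in q4 (30 of 36).

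The depth of q4 was seen in both KO lysates. Its input median against WT was -0.85 in KO1 and -0.68 in KO2, and its RPF median was -0.96 in both. In every single pair of a KO with a WT library, the q4 median (-0.85 to -0.65 in input, -0.99 to -0.96 in RPF) was below the median of all members. KO1 minus KO2 input had a median of -0.12 in q4 and -0.04 over all members, and coding GC content moved with that difference. The median GC content of the coding sequence was 62.8% in q4, 55.8% over the members and 52.3% over all genes. Across the 289 members, the difference between KO1 and KO2 input correlated with GC content at a Spearman rho of -0.44 (-0.57 across all genes), a description over genes that share 2 libraries. When the trend of the change with GC content over all genes was removed, q4 was at -0.91 in input and -0.87 in RPF.

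**Figure D2:**
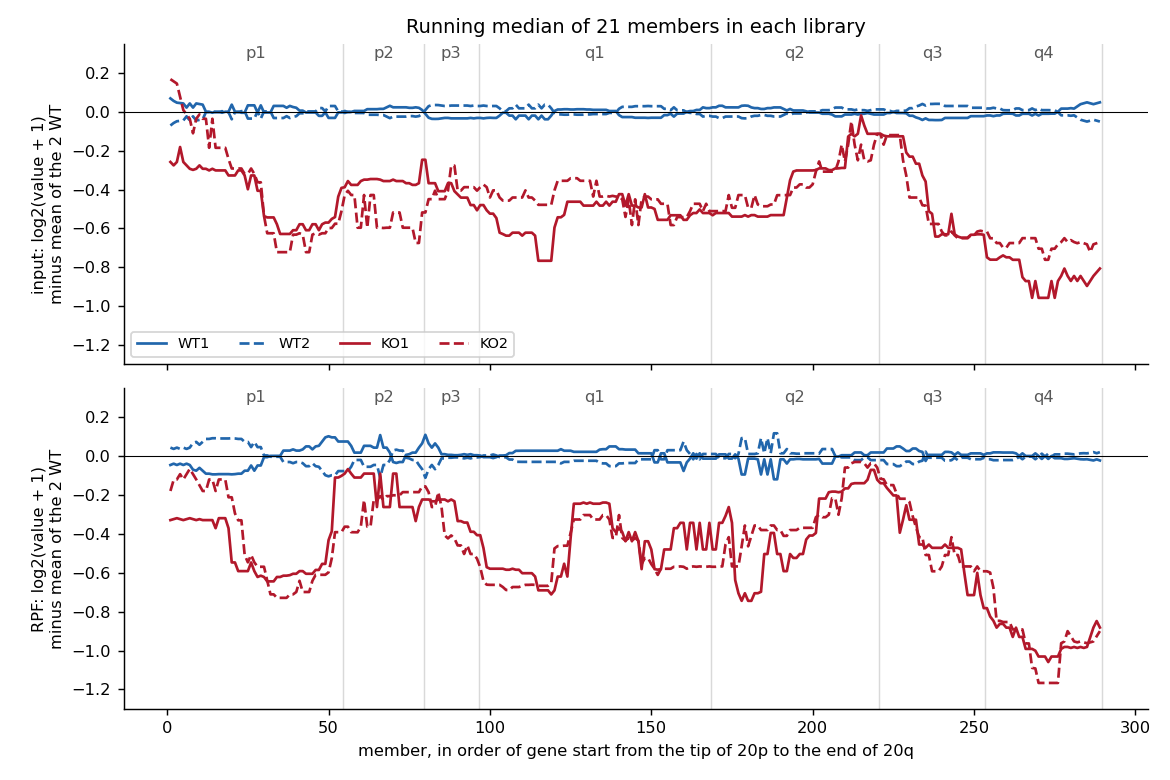
Running median of 21 members in each input (top) and RPF (bottom) library, as log2(value + 1) minus the mean of both WT libraries, along the same gene order. Both KO libraries of each type trace the same dips in p1 and q4 and the same return toward 0 in late q2, while the WT libraries stay near 0. At the tip of p1 the KO input libraries lie apart, with KO1 at -0.26 and KO2 at 0.17 at the first member.

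The fall was not even within the bins. The shallowest stretch of 21 neighbouring members in input ran from PCIF1 to CEBPB (gene starts 45.9 to 50.2 Mb), with a median of -0.09 in input and -0.09 in RPF. In RPF, 2 of these 21 members were called lower and none higher, against 13.1% and 16.2% of all genes. The deepest stretch in input ran from SLCO4A1 to DNAJC5 (62.6 to 63.9 Mb), with a median of -0.80 in input and -1.05 in RPF, and 18 of its 21 members were called lower in RPF. The shallowest RPF stretch, SLC12A5 to PTPN1 (46.0 to 50.5 Mb, median -0.08), overlapped the first, and the deepest, LAMA5 to ZBTB46 (62.3 to 63.7 Mb, median -1.05), overlapped the second. These stretches were picked as extremes, so their medians are descriptions.

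The member nearest each bin's input median is given as an example. It was chosen on input alone and need not lie near the bin's RPF median given above. TMX4, a thioredoxin-related protein of the endoplasmic reticulum in p1, had 952 and 1049 normalised input reads in WT1 and WT2 against 762 and 754 in KO1 and KO2, the order kept below. AAR2, a splicing factor in q1, had 411 and 421 in WT against 279 and 304 in KO. LSM14B, an RNA-binding protein of cytoplasmic granules in q4, had 602 and 576 against 326 and 368. In each of these, both KO values lay below both WT values. Of these, LSM14B alone passed the test in RPF. LSM14B fell to 336 and 388 from 637 and 606 (-0.78 ± 0.13, adjusted p = 3.7e-04), whereas AAR2 had 352 and 309 in WT and 281 and 319 in KO (-0.14 ± 0.15, adjusted p = 0.52), with KO1 and KO2 on either side of WT2. TMX4 had 504 and 503 RPF in WT and 467 and 448 in KO, both below WT, with a change of -0.14 ± 0.11, adjusted p = 0.4. Among the members nearest their bin's median elsewhere, ABHD12 (a lipid hydrolase, p3) and CTSA (the lysosomal protective protein, q2) were lower in RPF, by 0.67 ± 0.14 (adjusted p = 0.0022) and 0.61 ± 0.12 (adjusted p = 0.0015). KIF16B (an endosomal kinesin, p2), with 0.02 ± 0.24, adjusted p = 0.96, and DPM1 (a subunit of dolichol-phosphate-mannose synthase, q3), with -0.11 ± 0.13, adjusted p = 0.56, did not pass the test.

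**Figure D3:**
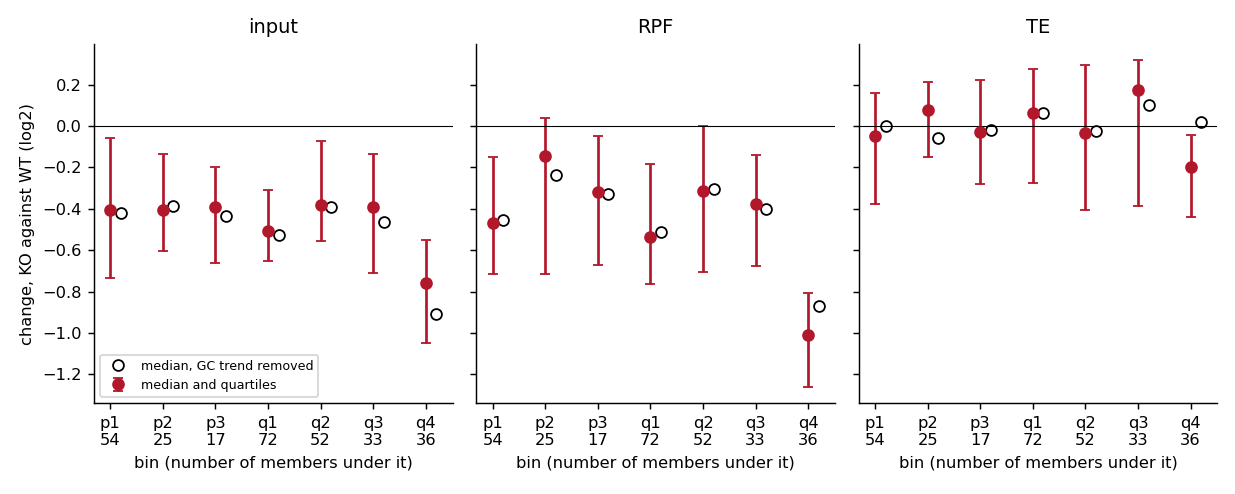
Median change in KO against WT of the members of each bin in input, RPF and TE (filled points, bars from the lower to the upper quartile; number of members under each bin), with the medians after removal of the GC trend as open points. The bin q4 is lowest in input and RPF under both treatments, while its TE median moves from -0.20 to 0.02 when the GC trend is removed.

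Among the 220 members with a mean value of at least 100 over the 8 libraries, the largest falls were led by SMOX, spermine oxidase, an enzyme of polyamine breakdown (chr20:4120980-4187747). SMOX had 233 and 239 normalised input reads in WT and 44.0 and 54.2 in KO. Its RPF values were 459 and 427 in WT and 88.0 and 95.9 in KO. WT and KO were far apart in both readings, with a log2 change of -2.27 ± 0.19 in input and of -2.26 ± 0.20, adjusted p = 4.6e-07 in RPF. SMOX lies in p1, in the stretch where the running median dips.

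OSBPL2, a lipid-transfer protein of the oxysterol-binding family in q4, had 282 and 349 normalised input reads in WT against 127 and 137 in KO (-1.27 ± 0.16). DNMT3B, a de novo DNA methyltransferase in q1, had 125 and 129 against 49.4 and 58.2 (-1.25 ± 0.21). CPNE1, a calcium-dependent phospholipid-binding protein in q1 whose first exons overlap those of RBM12, had 640.0 and 625 against 264 and 284 (-1.22 ± 0.13). All 3 had KO values well below WT and were lower in RPF as well, with log2 changes of -1.01 ± 0.18, adjusted p = 6.3e-04, -0.95 ± 0.21, adjusted p = 0.0031 and -0.83 ± 0.12, adjusted p = 9.3e-05.

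In q4, MRGBP, a subunit of the NuA4 histone acetyltransferase complex (chr20:62796473-62801729), had 805 and 876 input in WT and 321 and 421 in KO, and its RPF values fell from 551 and 589.6 to 188 and 207 (-1.52 ± 0.15, adjusted p = 1.0e-06). DIDO1, a chromatin-associated protein, had 822 and 800.2 RPF in WT and 298 and 298 in KO (-1.44 ± 0.12, adjusted p = 2.6e-07). SLC2A4RG, a transcription factor named for the GLUT4 gene, had 877 and 806 in WT and 279 and 339 in KO (-1.45 ± 0.13, adjusted p = 4.9e-07). The genotypes did not overlap for any of these genes. NECAB3, a calcium-binding protein in q1, completed the 5 largest RPF falls with 387 and 331 against 109 and 136 (-1.55 ± 0.20, adjusted p = 2.4e-05), beside an input change of -0.66 ± 0.17.

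Against the 155 and 135 lower calls, 8 members were called higher in input (HELZ2, JAG1, THBD, SULF2, SNPH, SRXN1, SAMHD1 and PREX1) and 7 in RPF (SNPH, HELZ2, JAG1, SAMHD1, SLPI, NAA20 and NDRG3), and 4 were in both lists. The higher calls in input numbered 3 without WT1, 5 without WT2, 17 without KO1 and 4 with DESeq2, and those in RPF numbered 4 without the KO1 lysate. The genes of these lists beyond HELZ2, JAG1, SRXN1 and SAMHD1 are named after their values were seen. Levels at or above 0 were seen for 41 members in input, 49 in RPF and 19 in both.

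HELZ2, a helicase and nuclear-receptor coactivator induced by interferon, lies in the deepest stretch of q4 (chr20:63558086-63574239, minus strand) and went the other way. It had 38.1 and 53.3 normalised input reads in WT and 183 and 237 in KO (2.19 ± 0.21), and its RPF values were 52.3 and 52.1 in WT and 188 and 236 in KO (1.99 ± 0.26, adjusted p = 2.7e-05). Every KO value was well above every WT value. JAG1, a Notch ligand in p2, had 61.3 and 71.1 input in WT against 195 and 179.7 in KO, and 80.8 and 56.2 against 204 and 148 RPF (1.35 ± 0.25, adjusted p = 8.1e-04), a call that ended without the KO1 lysate. SAMHD1, a dNTP hydrolase that limits retroviruses, had 193 and 211 against 315 and 323 input, where the call ended without WT1, and 171 and 152 against 344 and 289 RPF (0.96 ± 0.17, adjusted p = 4.8e-04). SRXN1, which reduces oxidised peroxiredoxins, had 48.3 and 35.5 input in WT against 57.3 and 93.9 in KO. Its input call ended without KO2, without WT2, with DESeq2 and with the GC trend removed, and its RPF change of 0.37 ± 0.28, adjusted p = 0.34 did not pass the test.

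**Figure D4:**
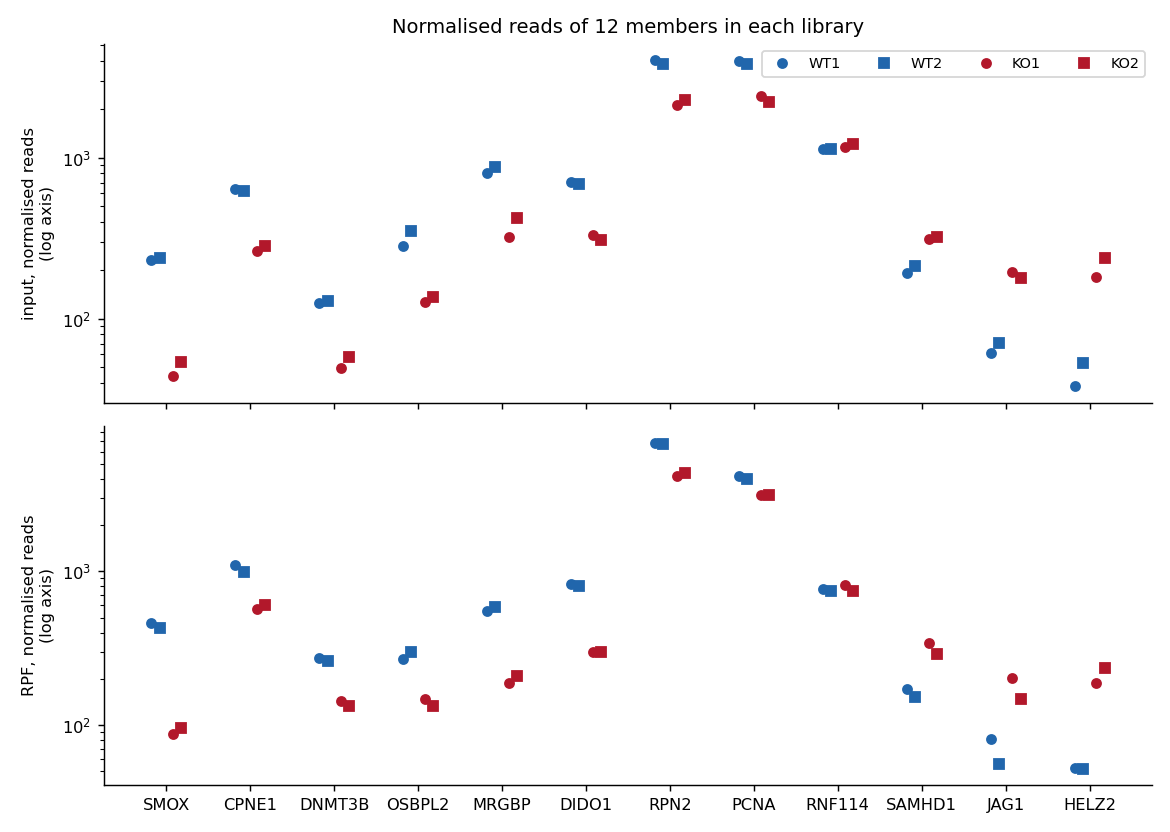
Normalised reads (log axis) of 12 members in each input (top) and RPF (bottom) library, WT in blue and KO in red, circles for lysate 1 and squares for lysate 2. For SMOX through PCNA both KO points lie below both WT points in both panels; for SAMHD1, JAG1 and HELZ2 both lie above, and RNF114 differs little.

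The start regions of HELZ2 and of 2 of its falling neighbours are shown because these 3 genes lie within 1 Mb of each other and moved in opposite directions. HELZ2 had 2 promoter entries, of which 1 is shown. DIDO1, which fell and also lies within 1 Mb of HELZ2, is not shown and had 29 CG and a GC content of 69.2%. Each line holds the 250 bases before the gene start from RefSeq (build GRCh38.p14), 5′ to 3′ on the gene's strand, with every CG dinucleotide in capitals.
HELZ2 (chr20:63574240-63574489, minus strand): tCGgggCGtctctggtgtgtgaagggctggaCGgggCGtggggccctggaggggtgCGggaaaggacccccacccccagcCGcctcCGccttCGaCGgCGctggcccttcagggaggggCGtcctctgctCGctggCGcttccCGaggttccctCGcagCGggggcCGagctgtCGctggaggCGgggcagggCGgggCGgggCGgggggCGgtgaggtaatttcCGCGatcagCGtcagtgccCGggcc
MRGBP (chr20:62796223-62796472, plus strand): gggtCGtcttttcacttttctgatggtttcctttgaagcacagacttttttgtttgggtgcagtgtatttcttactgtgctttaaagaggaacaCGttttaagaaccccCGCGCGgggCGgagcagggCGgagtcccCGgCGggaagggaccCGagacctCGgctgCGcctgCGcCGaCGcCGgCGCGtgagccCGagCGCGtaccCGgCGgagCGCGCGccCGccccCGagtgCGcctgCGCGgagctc
SLC2A4RG (chr20:63739526-63739775, plus strand): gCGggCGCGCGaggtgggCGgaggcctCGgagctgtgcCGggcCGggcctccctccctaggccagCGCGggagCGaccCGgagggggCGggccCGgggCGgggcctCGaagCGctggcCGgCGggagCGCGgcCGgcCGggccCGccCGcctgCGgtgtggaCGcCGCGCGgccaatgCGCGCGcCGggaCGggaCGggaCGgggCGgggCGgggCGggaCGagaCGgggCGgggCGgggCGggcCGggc
All are rich in CG, with 27, 31 and 46 of them and a GC content of 75.2%, 64.4% and 86.8%. CG was searched as these letters, which read the same on both strands, and 93.9% of 35116 promoters held at least 1. Promoter entries matched 225 members by symbol. Over these the median was 24.0 CG in 250 bases, against 22.0 over the 9050 matched genes with an RPF value, and in q4 it was 33.0 over 29 members. HELZ2, which rose, and MRGBP, which fell, were both below the q4 median in CG, and SLC2A4RG, which fell, was above it.

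TE changed little. The members' median TE change was -0.03, against 0.02 over all genes. Below 0 were 152 of 289 members (52.6%), against 48.2% of all genes. TE holds the input values that the chromosome was chosen on, so its calls are not free of that choice. limma called 4 members lower in TE and 2 higher, where 2.08% and 2.70% of all genes were called. edgeR called 9 lower and 2 higher of 288, against 3.85% and 3.11%, and made all 6 calls of limma.

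For the genes with lower TE, RPF fell by more than input did. MYBL2, a transcription factor of cell-cycle genes (q2), had 3167 and 3081 input in WT and 2141 and 2562 in KO, while its RPF values fell from 2528 and 2493 to 1032 and 1066; its TE change was -0.84 ± 0.15, adjusted p = 0.0057. CENPB, which binds the alphoid repeats of centromeres (p1), had 1266 and 1207 input in WT and 1233 and 1408 in KO, groups that overlapped, and 2746 and 2737 against 1819.8 and 1675 RPF, a TE change of -0.74 ± 0.15, adjusted p = 0.011. PMEPA1, a membrane protein induced by TGF-beta (q3), had overlapping input of 338 and 367 in WT and 343 and 312 in KO, and 276 and 343 against 100.1 and 174 RPF, a TE change of -1.11 ± 0.30, adjusted p = 0.046. All of these have coding sequences richer in GC (58.5%, 65.0% and 65.0%) than the median of all genes. With the GC trend removed, their TE changes were -0.68, -0.39 and -0.75, and those of CENPB and PMEPA1 no longer passed the test. SLC2A4RG, named above, was the fourth called lower (TE change -0.69 ± 0.19, adjusted p = 0.043).

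The genes with higher TE were called lower in input and not called in RPF. YWHAB, a 14-3-3 protein (q2), had 2319.7 and 2215 input in WT against 1568 and 1293 in KO, with overlapping RPF values of 3623 and 3167 in WT and 3445 and 3392 in KO (TE change 0.68 ± 0.15, adjusted p = 0.02). GINS1, a subunit of the GINS complex of the replicative helicase (p3), had 1311 and 1373 against 867 and 827 input, with RPF values of 639 and 732 in WT and 703 and 622 in KO (TE change 0.61 ± 0.16, adjusted p = 0.041). Their coding sequences were poorer in GC (45.7% and 43.7%) than the median of all genes. With the GC trend removed, their TE changes were 0.48 and 0.38, and neither passed the test. Of the 6, MYBL2 alone was still called without that trend, beside DSTN (lower) and SNRPB and ID1 (higher), all 3 named after their values were seen. With another lysate left out limma made fewer TE calls among the members, and without a variance trend it made none. At an unadjusted p under 0.05, limma had 25 lower and 18 higher without a variance trend, against 27 and 24 in the main fit. The share of all genes at that level is not given here, so nothing is read from these counts. Leaving out the KO2 lysate ended all 6 TE calls in limma. Across the members, the TE change correlated with coding GC content at a Spearman rho of -0.39, and across all genes at -0.47, as a description over genes of the same libraries. The low TE median of q4 (-0.20) became 0.02 when the GC trend was removed.

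By role, the calls of the members lay on the lower side in each group. The groups below were drawn up with earlier results of these data known and are described by counts and medians alone. Their counts stand beside the 46.7% of all members called lower in RPF, against 13.1% of all genes, and the 54.4% of tested members called lower in input, against 10.6%. Groups such as RNA processing, the secretory pathway and growth control lay near the members' own share in RPF, and nothing about a role is read from any of these counts. Of the 16 members that act in the cell cycle and DNA replication, 15 were called lower in input (median -0.68) and 11 in RPF (median -0.49), and none higher. The one not called in input, named after its value was seen, was CDC25B, a phosphatase that activates cyclin-dependent kinases. PCNA, the sliding clamp of DNA polymerases, had 3954 and 3786 input in WT and 2414 and 2214 in KO, and 4169 and 4003 against 3126 and 3134 RPF (-0.38 ± 0.09, adjusted p = 0.0058), a call that ended without the WT1 lysate and in limma without a variance trend. CSE1L, which exports importin-alpha from the nucleus, had 4663 and 5176 against 4463 and 3945 RPF and did not pass the test (-0.23 ± 0.11, adjusted p = 0.12).

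Of 20 members of the secretory pathway and membrane traffic, 14 were called lower in input (median -0.50) and 11 in RPF (median -0.54), and none higher. RPN2, a subunit of the oligosaccharyltransferase, had 4019.7 and 3829.8 against 2115 and 2292 input and 6856 and 6710.4 against 4148 and 4338 RPF (-0.68 ± 0.10, adjusted p = 6.1e-05), with clear gaps between the genotypes. ERGIC3, a cargo receptor between endoplasmic reticulum and Golgi, had an RPF change of -0.27 ± 0.11, adjusted p = 0.067, and ARFGEF2, an exchange factor for ARF GTPases, had -0.01 ± 0.10, adjusted p = 0.94; neither passed the test.

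Of 16 members of RNA processing, 13 were called lower in input (median -0.59) and 7 in RPF (median -0.32). Its members with the highest read values in input were not among those called in RPF. SNRPB, a core protein of spliceosomal snRNPs, had 2207 and 2219 against 1628 and 1808 input but overlapping RPF values of 7215 and 7202 in WT and 7542 and 6914 in KO. RBM39, a splicing factor, had an RPF change of -0.27 ± 0.12, adjusted p = 0.09, and NELFCD, a subunit of the negative elongation factor, had 0.18 ± 0.10, adjusted p = 0.18. The TE median of this group was 0.21 (0.12 with the GC trend removed), and none of its members was called in TE by limma before that removal. It was not alone in this. The TE median was 0.24 (0.08) in the cell cycle group, 0.13 (0.04) in the secretory group, 0.09 (0.02) in the ubiquitin group and 0.05 (0.08) in the growth control group. In the group of liver regulators and metabolic enzymes it was -0.11 (0.17).

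Of 19 members of growth control and chromatin, 10 were called lower in input (median -0.50) and 11 in RPF (median -0.57). GNAS, the stimulatory G-protein alpha subunit, whose locus holds overlapping and antisense transcripts, had 9904 and 10627 against 6056 and 7054 input, with an RPF change of -0.23 ± 0.12, adjusted p = 0.16. ADNP, a chromatin-binding homeodomain protein, had -0.21 ± 0.12, adjusted p = 0.22 in RPF. Neither passed the test in RPF. Of 10 members of ubiquitin and protein folding, 6 were called lower in input (median -0.57) and 3 in RPF (median -0.38). ITCH, a HECT ubiquitin ligase, had 960.0 and 941 against 519 and 421 input and 418 and 477 against 254 and 281 RPF (-0.74 ± 0.14, adjusted p = 8.2e-04). FKBP1A, a prolyl isomerase, had an RPF change of -0.12 ± 0.12, adjusted p = 0.51, and RNF114, a ubiquitin ligase in the shallow stretch of q2, had 0.05 ± 0.11, adjusted p = 0.77; neither passed.

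The smallest median falls were those of the liver regulators and metabolic enzymes. Of 23 listed, 14 had a TE value, and HNF4A, FOXA2, PCK1, HAO1, ACSS1, PLTP, SLC13A3, SLC2A10 and CYP24A1 had none. ACSS1, named after its value was seen, was tested in input alone and is outside these medians. It had 29 and 20 counts in WT against 4 and 1 in KO (-3.56 ± 0.70). Of the 14, 3 were called lower in input (median -0.29) and 3 in RPF (median -0.15), and none higher. AHCY, which hydrolyses S-adenosylhomocysteine, had 3219 and 2948 against 2729 and 2737 RPF (-0.17 ± 0.10, adjusted p = 0.22). IDH3B, a subunit of mitochondrial isocitrate dehydrogenase, had -0.02 ± 0.11, adjusted p = 0.9 and CST3, the protease inhibitor cystatin C, had -0.01 ± 0.15, adjusted p = 0.97. None of these passed the test.

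Members of every expression level were lower. When they were split by their mean log2(value + 1) over all libraries into 3 groups of 96, 97 and 96, the input median was -0.37, -0.50 and -0.49 from the lowest to the highest group. The RPF median was -0.61, -0.51 and -0.38. The spread between genes was wider at low levels: the RPF quartiles were -1.04 and -0.09 in the lowest group and -0.68 and -0.12 in the highest.

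Among the 23 chromosomes with at least 50 genes in the TE table, chromosome 20 had the lowest median in both readings. With its 20 name-skipped genes included, the medians were -0.46 in input and -0.47 in RPF. Chromosome 16 came next at -0.23 and -0.35. The other 21 lay between -0.10 and 0.20 in input and between -0.03 and 0.16 in RPF. The order of these 2 chromosomes was the same after removal of the GC trend, with -0.50 and -0.47 for chromosome 20. No test was made of this ranking, as the chromosome was chosen for it.

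**Figure D5:**
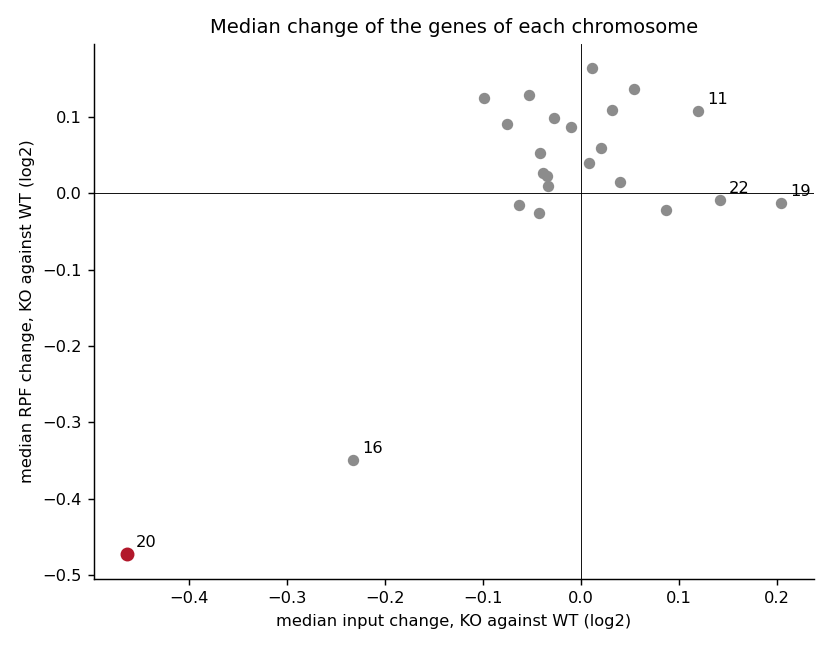
Median log2 change in KO against WT of the genes of each of 23 chromosomes, input on the horizontal and RPF on the vertical axis, with chromosome 20 in red and chromosomes beyond 0.1 in input labelled. Chromosome 20 sits lowest in both directions, at -0.46 and -0.47, followed by chromosome 16.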

How the data were processed

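Input and RPF libraries of WT and KO cells labelled HepG2 were analysed, 2 of each. Input counts were deposited by the authors, who aligned reads to hg38 with STAR 2.7.3a and counted them per gene with featureCounts 1.6.0 (versions from the submitters' processing notes). For RPFs the authors trimmed reads, removed rRNA and counted them with the RiboToolkit server. The deposited TE table is named for RPKM but holds a signal equal to read counts divided by 1 size factor per library: 100% of its values came out as whole reads (tolerance 0.02), and its input reads equal the count table. The log2 fold change and p-value columns that the authors deposited beside them hold their own comparison and were not used. The planned tests assumed RPKM and were kept, since they suit any normalised value.

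Input counts were tested with edgeR 4.0.16 (quasi-likelihood, TMM, filterByExpr). For RPF and TE, limma 3.58.1 was run on log2(value + 1), with a variance trend, for genes with a mean of at least 1. This scale understates changes of low genes. In limma and edgeR alike, the input and RPF libraries of the same lysate entered as separate samples. Only the lysate blocks, given below, paired them in TE. p-values were adjusted by Benjamini-Hochberg over all genes, and calls use 0.05. The recovered reads were also tested with edgeR, and input with DESeq2 1.42.0. The GC trend was a loess curve (span 0.3) of each library's deviation on coding GC content from GENCODE 44, known for 289 of 289 members. Scripts were tested on simulated data. Gene positions are hg38. One gene, broken over 3 lines of the count table, was left out.

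The members, role groups and bins were chosen with earlier results of these data known. Members named in the text had a mean value of at least 100 and were the 5 largest falls and 3 largest rises in input and in RPF, and the 3 largest each way in TE, among called members whose groups did not overlap. To these were added the 3 members of each role group with the highest WT input value and the member nearest each bin's input median. Correlations of the differences between replicates of WT and KO were 0.04 in input and -0.00 in RPF. No effect shared by same-numbered replicates of the genotypes was thus seen across genes. Whether those replicates were handled together is not stated, and these correlations cannot decide it. Alternatives comprised other size factors, filters, pseudocounts, centring, the GC trend, blocks and leaving out each library or lysate.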

Additional observations from a re-analysis of the deposited data

How the results depend on the processing

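The lower calls in RPF stayed within 1.5 times of 135 under every alternative run, from 99 to 119 with 1 lysate left out. In input, leaving out WT1 or WT2 gave 79 and 83 lower calls, and the range with 1 library left out was 79 to 169. The higher calls in input were 4 with DESeq2 and 3 to 17 with 1 library left out, and those in RPF were 4 to 8. TE calls were the least stable. The lower ones numbered 2 with the GC trend removed, 2 with that and a replicate block, 2 with that and a block on the lysate (added after seeing the data), 9 with edgeR, 0 in limma without a variance trend and 0 to 2 with 1 lysate left out. The higher ones numbered 6 with the GC trend and the lysate block, 0 without a variance trend and 0 to 1 with 1 lysate left out. At an unadjusted p under 0.05, limma had 25 lower and 18 higher without a variance trend, against 27 and 24 in the main fit, and nothing is read from these counts. The replicate block called 163 members lower and 8 higher by input, 141 and 8 by RPF, 5 and 2 by TE, and with the lysate as block 6 and 2 by TE. The share of all genes called is given for the main fits and edgeR on the recovered reads alone. For the other alternatives, here and above, whether a changed count was particular to the members therefore cannot be told.

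The median input change of the members was -0.51 with the GC trend removed, -0.45 with a pseudocount of 5, and -0.46 to -0.45 with 1 library left out. The RPF median was -0.46 with a pseudocount of 5 and -0.51 to -0.48 with 1 lysate left out. The TE median was 0.024 with the GC trend removed and -0.074 to -0.012 with 1 lysate left out. In 10 cases near 0 the sign turned, 2 of them in input and 8 in RPF, and none of these values was called as reported. With the GC trend removed, without and with a replicate block, CENPB input was -0.12 and -0.11, CST3 input -0.055 and -0.062, CST3 RPF 0.14 and 0.14, YWHAB RPF -0.086 and -0.086, and KIF16B RPF -0.066 and -0.066. With edgeR, RPF was -0.0082 for YWHAB, -0.015 for SNRPB and -0.034 for KIF16B. With libraries centred on their medians it was 0.0065 for CST3 and 0.0023 for ARFGEF2. With 1 library or lysate left out, input ranged from -0.018 to 0.19 for CENPB and -0.11 to 0.38 for CST3. RPF then ranged from -0.084 to 0.11 for YWHAB, -0.15 to 0.049 for GINS1, -0.14 to 0.091 for IDH3B, -0.20 to 0.18 for CST3, -0.060 to 0.065 for the SNRPB RPF value, -0.029 to 0.0015 for ARFGEF2, -0.021 to 0.12 for RNF114 and -0.29 to 0.33 for KIF16B. The causes were not tested. Depth left 9 of 289 members with 3 or fewer reads in at least 1 library.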

Other observations

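The 20 chromosome 20 genes set aside by name had a median log2 change of -0.40 in input and -0.29 in RPF, against -0.47 and -0.49 for the members. In RPF, 8 of the 20 were called lower by limma and none higher, where 13.1% of all genes were called lower and 16.2% higher. ZNF831, a zinc-finger gene of distal 20q, had 457 and 449 normalised input reads in WT against 28.9 and 21.1 in KO, and 318 and 301 RPF against 26.5 and 12.3. EEF1A2, the second elongation factor 1A gene, in the most distal bin, had 109 and 113 input against 8.44 and 20.1 in KO. RPS21, a protein of the small ribosomal subunit, had 8046 and 8985 RPF in WT against 5031 and 4896 in KO. These 3 genes were named after their values were seen.

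A further 76 chromosome 20 genes had enough input counts to be tested but no TE value, and their median input change was -0.11. By kind, the median was -0.42 for 10 protein-coding genes, -0.19 for 29 long noncoding RNAs and -0.03 for 23 small RNA genes and copies. Of the long noncoding RNAs, 3 were called lower and 2 higher by edgeR in input, against 10.6% and 11.8% of all genes. SNHG17 had 864 and 787 counts in WT against 410.0 and 543 in KO (log2 change -1.15 ± 0.13), LINC01429 had 96 and 99 against 27 and 42 (-1.86 ± 0.29), and NORAD had 2479 and 2580.0 against 1944 and 2443 (-0.57 ± 0.11). Both higher ones were near 0 in WT. SLCO4A1-AS1, which lies on the strand opposite the member SLCO4A1 in the deepest stretch of q4, had 1 and 2 counts in WT against 458 and 727 in KO, while SLCO4A1 itself was lower. ENSG00000226644, on 20p, had 2 and 0 counts against 17 and 22. ZFAS1, a snoRNA host gene, had a change of -0.02 ± 0.12 and lies in the stretch of 20q where the members changed least. The processed pseudogene FTLP3, a copy of the ferritin light chain gene, had 125 and 138 counts in WT against 435 and 553 in KO (1.55 ± 0.16), and whether its reads came from other copies was not tested. These genes were also named after their values were seen, and their calls support nothing because the chromosome was chosen on this contrast.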
